A study of Homo sapiens with 9 samples.

Results

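This account concerns 33 human genes of the type I interferon response and of nucleic acid sensing, examined for chromatin accessibility in SK-N-BE(2)c, an established human neuroblastoma cell line. The genes form a set by function, and the rule for their regions uses position and no measured value. A region (a row of the authors' count table) was assigned to a gene as a gene-end region when its centre lay within 1 kb of either end of the gene in GRCh38. It was assigned as a further region when it lay elsewhere in the gene span or within 50 kb of it. Of the 148797 regions in the table, 29 were gene-end regions of 24 of the 33 genes and 224 were further regions.

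The assay was ATAC-seq, which reads where the transposase Tn5 can cut and tag DNA and so reports open chromatin. Cells had been transfected with lipofectamine 2000 and 100 nM of an antisense oligonucleotide (ASO) 48 h before collection. ASO2 and ASO10 are directed against NESPR, an adrenergic-specific long non-coding RNA, and NCA is the negative control ASO, with 3 libraries for each of these 3 groups. All groups thus received an oligonucleotide at the same dose, and no untransfected cells were analysed here. The question whether a transfected oligonucleotide opens these genes can therefore be answered only as a difference between ASO2 or ASO10 and NCA, or between ASO2 and ASO10, and any opening common to all 3 oligonucleotides cannot be seen. The labels do not say whether the libraries of a group came from separate cultures, so p-values measure the spread between these libraries, which may be technical. A bulk library also cannot tell a change in every cell from a change in the share of open cells.

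The genes share a well-known circuit. Foreign or misplaced nucleic acid is bound by sensors such as RIGI, IFIH1 (MDA5) and TLR3, and MAVS on mitochondria passes the signal of the first pair on to the factors that switch on interferon beta (IFNB1). Secreted interferon then acts through its receptor on a complex with STAT2 and IRF9, which binds the interferon-stimulated response element (ISRE) in the promoters of effector genes such as the IFIT, OAS and MX genes. Transfected nucleic acids can set off this circuit in many cells, and the effector genes are its usual readout.

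The promoters of 4 genes are shown because they carry an ISRE core inside or across the gene-end region whose values are given below. Sequences are from RefSeq (GRCh38.p14), 5′ to 3′ on the strand of the gene, with each match to the ISRE core (GAAA, any bases at the next pair of positions, then GAAA) in capitals. Neighbouring matches in ISG15 overlap and form 1 run of capitals. They are EIF2AK2 (chr2:37156977-37157176, minus strand), IFI6 (chr1:27672193-27672392, minus strand), OAS3 (chr12:112938274-112938473, plus strand) and ISG15 (chr1:1013297-1013496, plus strand).
EIF2AK2: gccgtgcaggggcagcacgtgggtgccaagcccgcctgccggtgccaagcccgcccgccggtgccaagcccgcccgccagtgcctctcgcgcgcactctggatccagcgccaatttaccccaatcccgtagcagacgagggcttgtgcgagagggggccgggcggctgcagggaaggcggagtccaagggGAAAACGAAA
IFI6: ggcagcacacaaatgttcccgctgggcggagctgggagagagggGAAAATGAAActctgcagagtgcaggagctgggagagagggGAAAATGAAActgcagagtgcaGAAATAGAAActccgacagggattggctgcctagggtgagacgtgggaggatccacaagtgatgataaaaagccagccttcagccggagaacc
OAS3: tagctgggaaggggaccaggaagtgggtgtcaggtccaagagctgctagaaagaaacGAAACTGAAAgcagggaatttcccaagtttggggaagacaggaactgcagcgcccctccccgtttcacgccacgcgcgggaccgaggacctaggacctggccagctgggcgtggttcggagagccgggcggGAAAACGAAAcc
ISG15: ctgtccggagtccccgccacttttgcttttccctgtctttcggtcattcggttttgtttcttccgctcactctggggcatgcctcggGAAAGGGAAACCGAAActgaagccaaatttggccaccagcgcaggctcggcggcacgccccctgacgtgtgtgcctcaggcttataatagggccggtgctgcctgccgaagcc
The last base printed is the base before the annotated start for IFI6, OAS3 and ISG15, and in EIF2AK2 the core runs across the start, from 6 bases before it. ISRE cores on either strand were found in the RefSeq promoters (250 bases before to 50 after a start) of 17 of the 27 genes that the promoter table holds (63.0%), against 659 of 15842 protein-coding genes (4.16%). The core of the gamma-activated site, TTCNNNGAA, which reads the same on both strands, was found in 8 of the 27 (29.6%), against 8.98% of all genes. A match describes the letters in these windows and is not a bound site. Promoters of IFIT2, USP18, DHX58, OAS2, IRF7 and OASL were not in that table.

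Depth and cell identity were checked once. Total counts ran from 7293565 to 10948569 per library, and the coefficient of variation between replicates beyond counting error was 23.5%. Among lists of marker genes, 8 of 9 adrenergic neuroblastoma genes had a gene-end region, with summed levels of 152.0 to 184.0 CPM (counts scaled by library size) per library. TH was the exception. Only 3 of 8 mesenchymal genes, 2 of 6 leukocyte genes and 1 of 4 endothelial and epithelial genes had one, and PTPRC, CD3E, CDH5 and EPCAM had none. Over all protein-coding genes the share with a gene-end region was 70.2%. The mesenchymal list summed to 62.8 to 80.7 CPM per library and the leukocyte list to 9.87 to 15.3 CPM. In NCA the strongest regions of SNAI2 (mean 28.2 CPM) and TWIST1 (27.9 CPM), both mesenchymal, were near adrenergic ISL1 (27.6 CPM). Mesenchymal FN1 had 10.1 CPM. The levels thus do not set all mesenchymal genes apart from adrenergic ones. No marker region was called in any contrast (0 of 18 tested regions). Of all tested gene-end regions, 1.54% were called under ASO2, 2.14% under ASO10, 1.40% for both ASOs and 3.31% between the ASOs. With so few regions, a count of 0 does not show that the markers stayed the same.

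At the median, the gene-end regions of the members were weakly open in control cells. A gene-end region was present for 24 of 33 members (72.7%), close to the 70.2% of 20052 protein-coding genes. The strongest such region of a member had a median of 7.26 CPM in NCA against 16.2 CPM over all genes with one, and 9.04 against 13.4 CPM per kb of region width. On the scale per kb, the median member stood at the 27 percentile of the genes that have a gene-end region. Of the 24 members, 4 lay in the upper part of those genes, above the 50 percentile. STAT2, with a level of 46.5 CPM per kb, stood highest at the 98.5 percentile. Its region lies within 1 kb of an end of APOF as well. For ISG20 and BST2 the region used lies at the stop and does not cover the promoter. A further region over an annotated ISG20 start, given below, had a higher level in every NCA library.

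**Figure D1:**
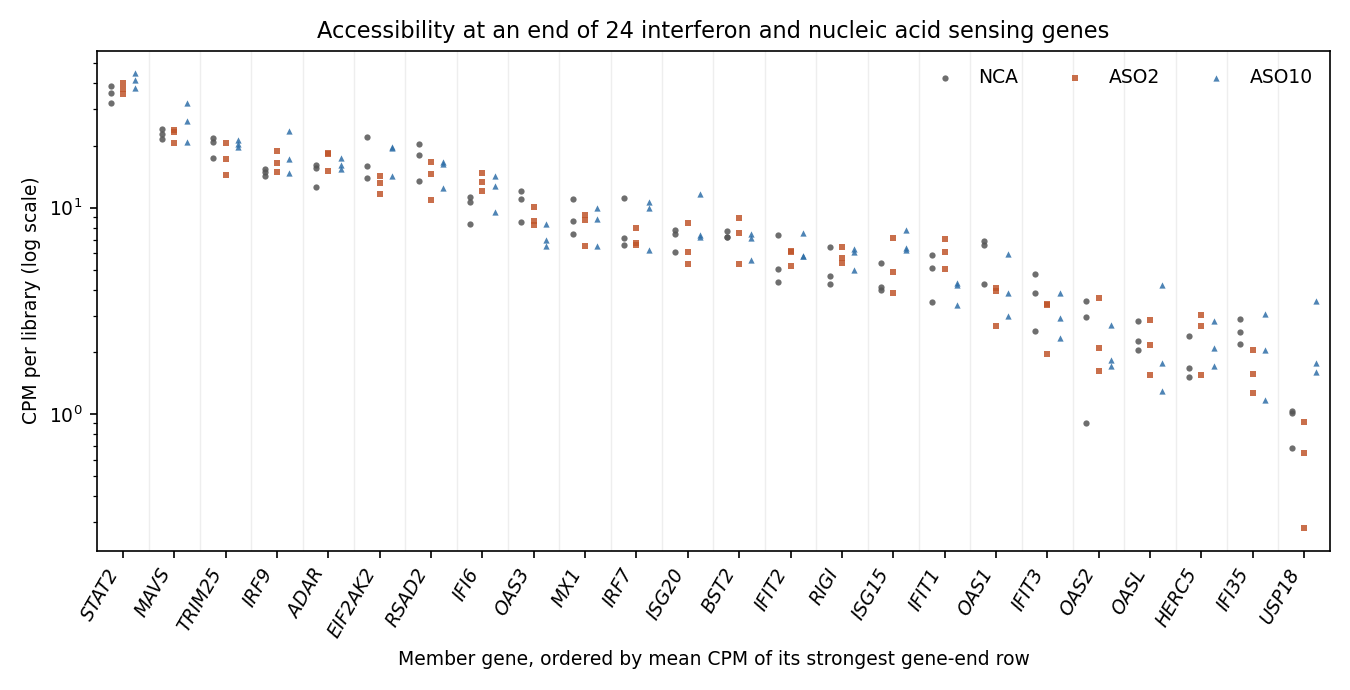
Accessibility (CPM on a log scale) of the strongest gene-end region of each of 24 member genes in every library, with NCA as circles, ASO2 as squares and ASO10 as triangles. STAT2 is highest (32.3 to 44.7 CPM), and USP18 has the lowest levels (0.281 to 3.52 CPM). For most genes the symbols of the 3 groups overlap.

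No gene-end region of the set differed between groups by the test. Each contrast was tested with edgeR's quasi-likelihood test over all 119417 regions with enough counts, with Benjamini-Hochberg adjustment, and a region was called at an adjusted p under 0.05. Of the 29 gene-end regions 27 could be tested, and the 2 too low to test were one of USP18 and one of RSAD2. An annotated start of the member lay inside 17 of the 27. Under ASO2, 0 of 27 were called, where 5.60% of all tested regions and 1.54% of the 13528 tested gene-end regions of all protein-coding genes were. Under ASO10, 0 of 27 were called, against 1.09% of all regions and 2.14% of gene-end regions. For the average of both ASOs against NCA the count was 0, against 2.99% and 1.40%, and for ASO2 against ASO10 it was 0, against 3.23% and 3.31%. With so few regions and such backgrounds, a count of 0 does not set the members apart from other genes.

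At an unadjusted p under 0.05 the counts were 4, 4, 3 and 3 in the same order, against 10.4%, 17.3%, 12.3% and 20% of gene-end regions of all genes. DESeq2 and limma-voom also called 0 gene-end regions in all 4 contrasts. The smallest adjusted p was 0.124 under ASO2, 0.286 under ASO10, 0.230 for both ASOs and 0.0931 between the ASOs, all from edgeR. The median log2 fold change over the 27 regions was -0.105 under ASO2, 0.046 under ASO10, -0.032 for both and -0.139 between the ASOs. Over all tested gene-end regions the medians were -0.053, 0.086, 0.015 and -0.147.

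The intervals show what size of opening the data leave room for. The 95% interval of the log2 fold change ended below 1 in 25 of 27 regions under ASO2, 23 under ASO10 and 24 for both ASOs. Of the 13528 tested gene-end regions of all genes, 12403, 12212 and 12621 did so in these contrasts. The 9 members without a gene-end region have no such interval. An increase of 1 on the log2 scale, which is a doubling, therefore lay outside the interval for most of the members' gene-end regions. The intervals reached above it at the stop of EIF2AK2 and at HERC5 under both ASO2 and ASO10, and at ISG15 and USP18 under ASO10. The summed level of all 29 gene-end regions was 252.6, 236.9 and 236.9 CPM in the NCA libraries, 235.6, 245.5 and 223.6 under ASO2 and 252.4, 250.2 and 260.7 under ASO10. These sums overlap between each ASO and NCA. Between the ASOs they did not overlap, and every ASO2 sum lay below every ASO10 sum. Gene-end regions of all genes also had a negative median log2 fold change for ASO2 against ASO10 (-0.147).

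**Figure D2:**
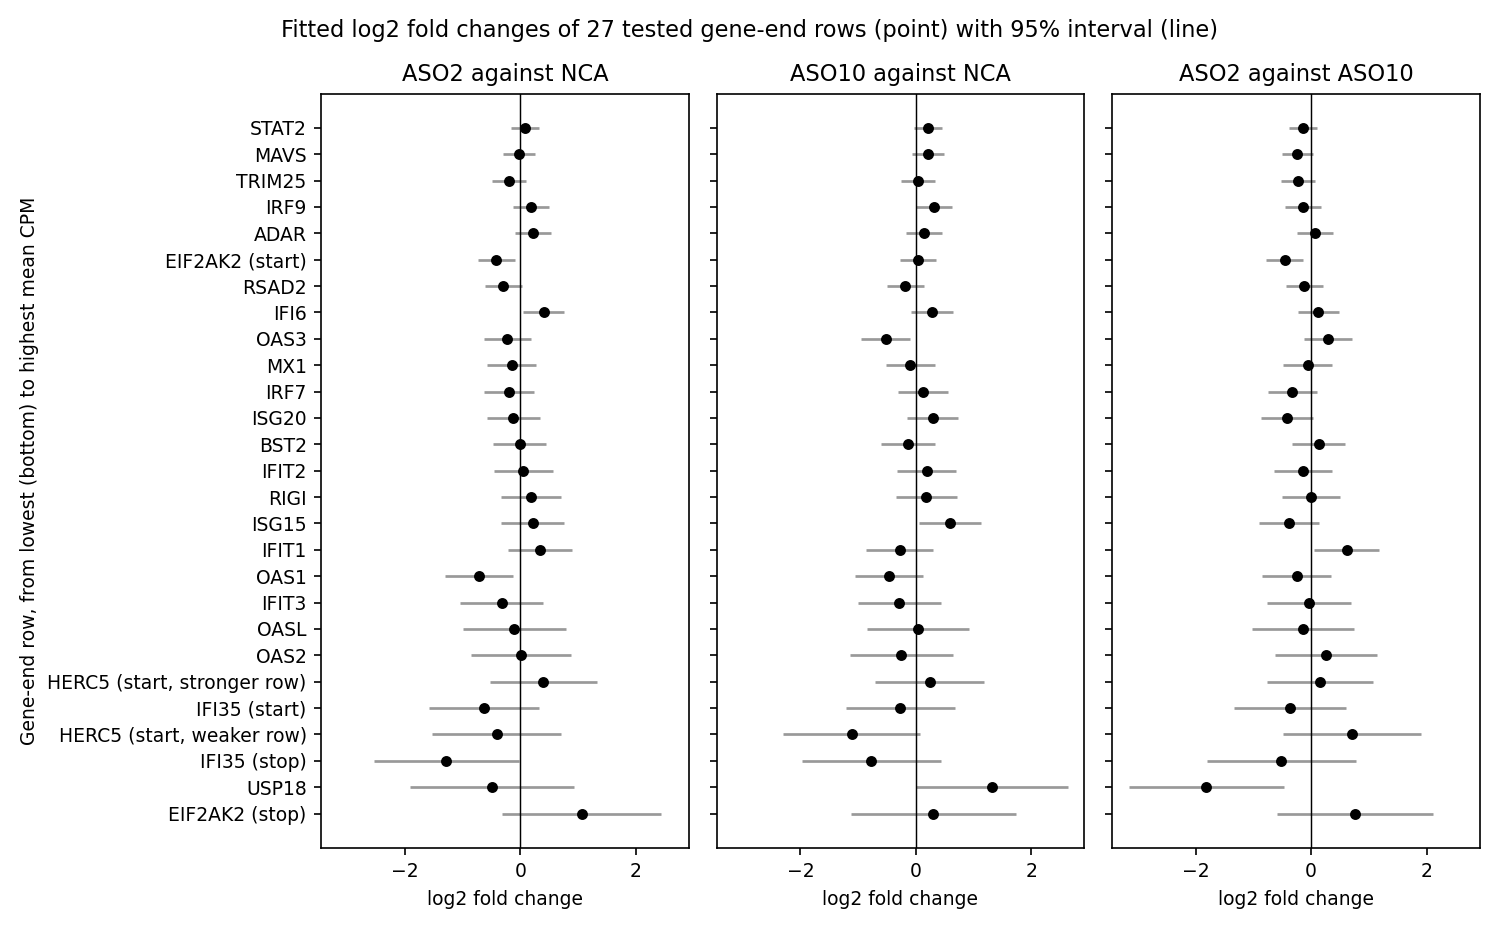
Log2 fold change (points) with 95% interval (lines) of the 27 tested gene-end regions in 3 contrasts, ordered by mean CPM from the lowest at the bottom. Intervals are narrow for STAT2 (-0.17 to 0.31 under ASO2) and wide for USP18 (0.01 to 2.63 under ASO10), and none of the 27 regions was called.

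Sensors and their partners came first in the circuit. RIGI, the cytosolic sensor of RNA ends, had a region at its start (chr9:32526046-32526687) with 6.44, 4.29 and 4.65 CPM in NCA, 6.46, 5.37 and 5.69 under ASO2 and 6.33, 5.01 and 6.12 under ASO10. The 3 groups overlapped, with log2 fold changes of 0.18 ± 0.27 (SE) under ASO2 and 0.18 ± 0.27 under ASO10 (edgeR adjusted p = 0.802 and 0.867). TRIM25, a ubiquitin ligase that acts on RIGI, had 21.8, 17.5 and 20.7 CPM in NCA, 17.3, 20.6 and 14.4 under ASO2 and 19.7, 21.3 and 20.3 under ASO10 at its start (chr17:56913424-56914689). Those values overlapped as well, with log2 fold changes of -0.20 ± 0.15 and 0.03 ± 0.15. IFIH1, TLR3 and DHX58 had no region within 1 kb of an end. The strongest region near IFIH1, the sensor of long double-stranded RNA, lay 25.6 kb from its nearer end inside GCA (chr2:162343851-162344621) and had 22.9, 19.0 and 26.9 CPM in NCA, 20.9, 30.5 and 22.8 under ASO2 and 21.0, 22.8 and 21.1 under ASO10. Its groups overlapped (log2 fold changes 0.11 ± 0.14 and -0.09 ± 0.14). Around TLR3 and DHX58, 10 and 8 further regions were tested and none was called.

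MAVS, the mitochondrial adaptor of RIGI and IFIH1, was one of the more open genes. The region at its start (chr20:3846159-3847463) had 24.1, 21.6 and 22.7 CPM in NCA, 23.7, 23.3 and 20.5 under ASO2 and 26.4, 20.9 and 32.3 under ASO10. The groups overlapped, with ASO10 replicates 1 and 3 above all other libraries. The log2 fold changes were -0.02 ± 0.14 under ASO2 and 0.22 ± 0.14 under ASO10 (edgeR adjusted p = 0.963 and 0.620). The ASO10 value was 0.05 without ASO10 replicate 3 and 0.37 without ASO10 replicate 2.

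IFNB1, interferon beta itself, and CXCL10, a chemokine it induces, had no gene-end region in the table. The strongest region near IFNB1 lay 29.6 kb away (chr9:21047120-21047901) and had 13, 11.3 and 14.0 CPM in NCA, 11.1, 14.9 and 12.5 under ASO2 and 8.91, 10.2 and 10.5 under ASO10. The ASO10 libraries lay below both other groups, but the difference from NCA was not called (log2 fold change -0.37 ± 0.19, edgeR adjusted p = 0.465). Under ASO2 the log2 fold change was 0.01 ± 0.18. Absence from the table means only that no region was listed there.

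The transcription factors that carry the interferon signal include the most open member. STAT2 (chr12:56359904-56360672, at its start) had 32.3, 36.1 and 38.7 CPM in NCA, 37.5, 40.0 and 35.4 under ASO2 and 38.0, 41.6 and 44.7 under ASO10. The highest NCA library lay within the range of both ASO groups. Its log2 fold changes were 0.07 ± 0.12 under ASO2 and 0.21 ± 0.12 under ASO10 (edgeR adjusted p = 0.829 and 0.553), so the 95% interval under ASO10 ended at 0.45. IRF9, the DNA-binding partner of STAT2, and IRF7, the factor that amplifies interferon production, had log2 fold changes from -0.20 to 0.32 against NCA. None of the 3 factors was called.

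Enzymes that bind double-stranded RNA were examined next. EIF2AK2, the kinase PKR that halts translation, had at its start (chr2:37156094-37157415, the promoter printed above) 22, 13.9 and 15.9 CPM in NCA, 14.2, 11.6 and 13.1 under ASO2 and 19.7, 14.2 and 19.5 under ASO10. ASO2 overlapped NCA through NCA replicate 2 and lay below ASO10 by less than the rounding of these values. Among the gene-end regions of the set it had the smallest adjusted p under ASO2 (log2 fold change -0.42 ± 0.16, edgeR adjusted p = 0.124) and between the ASOs (-0.46 ± 0.16, edgeR adjusted p = 0.0931). Without NCA replicate 2 the first difference was called (-0.55, edgeR adjusted p = 0.0492), and without ASO10 replicate 2 the second was (-0.60, edgeR adjusted p = 0.0498). Both values are decreases under ASO2. The stop of EIF2AK2, which lies inside GPATCH11 (chr2:37098571-37098779), had 1.03, 0.378 and 1.02 CPM in NCA, 1.54, 2.04 and 1.56 under ASO2 and 1.17, 0.683 and 1.17 under ASO10. All ASO2 libraries lay above the rest there, at a level of few counts (log2 fold change 1.07 ± 0.70, edgeR adjusted p = 0.474). ADAR, which edits adenosines in double-stranded RNA, had log2 fold changes of 0.22 ± 0.16 and 0.14 ± 0.16 at its start.

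The OAS genes encode synthetases of oligoadenylates that activate RNase L. The OAS1 start (chr12:112906768-112907489) had 6.57, 4.29 and 6.92 CPM in NCA, 2.67, 4.08 and 3.95 under ASO2 and 5.98, 3.87 and 3.0 under ASO10. All ASO2 libraries lay below all NCA libraries, and ASO10 overlapped both. The difference was not called under ASO2 (log2 fold change -0.72 ± 0.30, edgeR adjusted p = 0.164) or for both ASOs (-0.59 ± 0.25, edgeR adjusted p = 0.230). At the OAS3 start (chr12:112938047-112938960, the promoter printed above) the levels were 12.0, 11 and 8.51 CPM in NCA, 10.1, 8.58 and 8.26 under ASO2 and 8.33, 6.94 and 6.51 under ASO10. Here the ASO10 libraries lay below all NCA libraries, with a log2 fold change of -0.52 ± 0.21 (edgeR adjusted p = 0.286). OAS2 and OASL were weak, at 2.46 ± 1.38 and 2.38 ± 0.41 CPM in NCA (SD, n = 3), and neither was called. Between ASO2 and ASO10 no OAS region was called, so a difference between the oligonucleotides was not shown for OAS1 or OAS3.

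ISG15 encodes a ubiquitin-like protein that HERC5 attaches to other proteins and USP18 removes. The ISG15 start (chr1:1013366-1013867, the promoter printed above) had 4.12, 5.42 and 3.97 CPM in NCA, 7.16, 3.86 and 4.86 under ASO2 and 6.22, 6.37 and 7.81 under ASO10. All ASO10 libraries lay above all NCA libraries, while ASO2 overlapped both. It was not called under ASO10 (log2 fold change 0.59 ± 0.27, edgeR adjusted p = 0.393) or ASO2 (0.21 ± 0.28, edgeR adjusted p = 0.770). The tested USP18 region (chr22:18149814-18150032) had 1.03, 1.01 and 0.681 CPM in NCA, 0.281, 0.644 and 0.917 under ASO2 and 1.76, 1.59 and 3.52 under ASO10. ASO10 was the highest group there, with log2 fold changes of 1.32 ± 0.67 for ASO10 against NCA (edgeR adjusted p = 0.468) and -1.82 ± 0.69 for ASO2 against ASO10 (edgeR adjusted p = 0.132). These rest on few counts. USP18 has near-identical copies on chromosome 22 that could share reads, and whether they did was not tested.

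Few gene-end regions had groups that stood fully apart. All ASO10 libraries lay above all NCA libraries in 2 of the 27 gene-end regions (ISG15 and USP18), where 17.9% of all gene-end regions did, and below in 1 (OAS3), where 4.85% did. All ASO2 libraries lay above all NCA libraries in 2 (IFI6 and the stop of EIF2AK2), where 4.51% of all gene-end regions did. They lay below in 2 (OAS1 and the start of IFI35), where 9.51% did. For both ASOs together no member stood apart, above or below, where 2.11% and 1.86% did. ASO2 lay above ASO10 in 3 and below in 2, where 3.27% and 19.5% did.

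The remaining effectors gave no call either. The start of IFI6, an interferon-induced membrane protein whose promoter above holds 3 ISRE cores (chr1:27672002-27672668), had 11.3, 8.32 and 10.7 CPM in NCA, 13.3, 14.7 and 12.1 under ASO2 and 12.8, 14.3 and 9.51 under ASO10. ASO2 lay above NCA in every library, and ASO10 overlapped it. The log2 fold change was 0.40 ± 0.18 under ASO2 (edgeR adjusted p = 0.226) and 0.34 ± 0.16 for both ASOs (edgeR adjusted p = 0.309). The stop of IFI35 (chr17:43013448-43013627) had 3.61, 2.14 and 0.681 CPM in NCA, 1.96, 0.322 and 0.459 under ASO2 and 0.938, 1.37 and 1.43 under ASO10. The groups overlapped, with ASO2 replicates 2 and 3 below all other libraries. The log2 fold change under ASO2 was -1.28 ± 0.64 (edgeR adjusted p = 0.285), and it was -0.68 without NCA replicate 1 and -2.39 without ASO2 replicate 1, not called in either. The IFIT genes, whose products bind foreign RNA, had log2 fold changes of -0.33 to 0.34 with ASO2 and of -0.28 to 0.19 with ASO10. For MX1, RSAD2, ISG20 and BST2, antiviral effectors of different kinds, they ran from -0.30 to -0.01 and from -0.18 to 0.29. The MX1 and RSAD2 regions lie at the start of the gene. Those of ISG20 and BST2 lie at the stop and do not cover the promoter.

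Regions that carry the ISRE core were also set beside each other over the whole genome. Of 294 tested regions that cover a core in any RefSeq promoter, 2.04% were called under ASO2, 1.36% under ASO10, 1.70% for both and 3.06% between the ASOs. The shares over all 10500 tested regions touching a RefSeq promoter were 1.52%, 2.34%, 1.46% and 3.78%. In the set itself, 10 regions covered a core and 0 were called in the 4 contrasts. Their medians were 0.122 under ASO2 and 0.068 under ASO10 on the log2 scale, against -0.008 and 0.077 over the 294 regions with a core and -0.042 and 0.099 over all regions touching a promoter. One of these 10 was a further region of ISG20, an exonuclease of RNA, at an annotated start 3.36 kb from the end of the gene, and it was chosen for mention after its values were seen (chr15:88638390-88639600). It had 34.5, 26.6 and 23.9 CPM in NCA, 34.2, 39.3 and 35.7 under ASO2 and 28.6, 26.7 and 36.3 under ASO10. ASO2 overlapped NCA by 1 library only, and the difference was not called (log2 fold change 0.37 ± 0.13, edgeR adjusted p = 0.0667). It was called without NCA replicate 1 (edgeR adjusted p = 0.0195), with loess offsets (0.0299) and with at least 10 counts in every library (0.0338).

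Around the genes, 202 of the 224 further regions could be tested. The background, further regions of all protein-coding genes, is not a like set. It leaves out every region within 1 kb of an end of any protein-coding gene, while the members' further regions keep those at ends of other genes. Called shares differ between these kinds of region, and gene-end regions of all genes had 1.54% under ASO2 and 2.14% under ASO10. Under ASO2, 5 member regions were called and all 5 were lower than NCA. In the background 5.45% were called and 0.802% were called lower. The members had 0 called higher, where 4.64% of such regions of all genes were. Under ASO10, 3 were called, 2 higher and 1 lower, against a background of 0.798% (0.586% higher and 0.213% lower). For both ASOs 3 were called, 1 higher and 2 lower, against 2.82% (2.19% and 0.639%). Between the ASOs 1 was called, lower under ASO2, against 2.98% (2.60% higher and 0.384% lower). At an unadjusted p under 0.05 the counts were 24, 18, 23 and 31 in these contrasts, against 16.3%, 9.65%, 13.8% and 13.4%. The calls fall on 9 regions, and all but one MAVS and one RSAD2 region lie 15.5 to 48.7 kb from the nearer end of the member that brought them in.

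**Figure D3:**
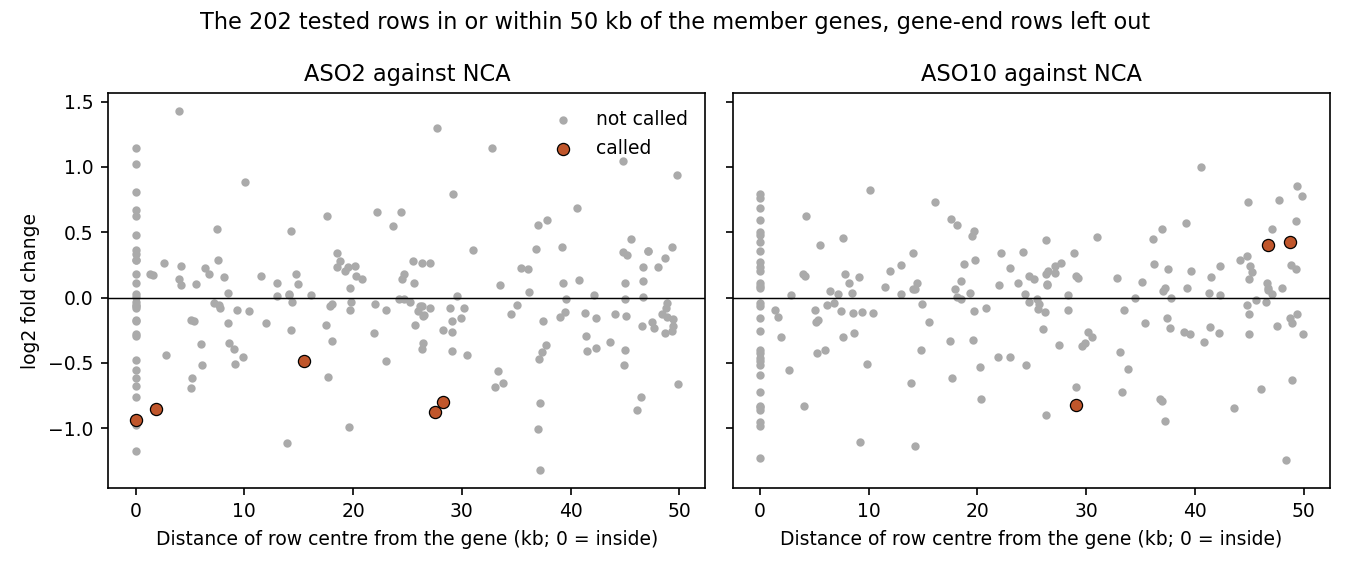
Log2 fold change of the 202 tested further regions against their distance in kb from the member gene (0 is inside the gene), with called regions in colour. The 5 regions called under ASO2 all lie below 0, and under ASO10 2 called regions lie above 0 and 1 below.

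Upstream of OAS1, and inside RPH3A, 2 regions were lower under ASO2. The nearer, 15.5 kb from the OAS1 start (chr12:112890939-112891983), had 25.3, 21.4 and 20.4 CPM in NCA, 14.6, 18.1 and 15.0 under ASO2 and 20.1, 18.5 and 20.3 under ASO10. Every library of both ASOs lay below every NCA library, and the fall under ASO2 was called (log2 fold change -0.49 ± 0.15, edgeR adjusted p = 0.0284). The farther, at 27.5 kb (chr12:112879046-112879800), had 9.15, 6.56 and 8.28 CPM in NCA, 5.19, 4.94 and 3.12 under ASO2 and 5.63, 4.78 and 8.33 under ASO10. ASO2 lay below NCA and ASO10 overlapped both (-0.88 ± 0.26, edgeR adjusted p = 0.0171). These calls were lost without NCA replicate 1 (edgeR adjusted p = 0.234 and 0.128) or ASO2 replicate 3 (0.111 and 0.207), the nearer also without ASO2 replicate 1 (0.171) and the farther without NCA replicate 3 (0.0725). The nearer was not called by limma-voom (adjusted p = 0.0656), nor the farther by DESeq2 (adjusted p = 0.0558).

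Near MAVS 3 regions were called. One inside the gene, 8.37 kb from its start (chr20:3854921-3855478), had 5.28, 5.80 and 7.72 CPM in NCA, 4.35, 2.68 and 2.94 under ASO2 and 4.81, 2.73 and 3.0 under ASO10. All 6 ASO libraries lay below the 3 NCA libraries, with a fall under ASO2 (log2 fold change -0.94 ± 0.31, edgeR adjusted p = 0.0450) and for both ASOs (-0.89 ± 0.26, edgeR adjusted p = 0.0292). It was the single called region inside a member. The call under ASO2 was lost with DESeq2, limma-voom and no filter, and without any 1 NCA library, ASO2 replicate 2 or 3, or ASO10 replicate 1 (adjusted p from 0.0540 to 0.290). That for both ASOs was lost with DESeq2 and without any 1 NCA library, ASO2 replicate 2 or 3, or ASO10 replicate 2 or 3 (adjusted p from 0.0508 to 0.310).

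A second MAVS region, 28.3 kb upstream (chr20:3818323-3818720), had 8.76, 8.57 and 9.98 CPM in NCA, 4.63, 6.65 and 4.40 under ASO2 and 7.98, 8.65 and 8.99 under ASO10. ASO2 lay below both other groups, and the fall was called against NCA (log2 fold change -0.80 ± 0.23, edgeR adjusted p = 0.0158) but not without NCA replicate 3 (edgeR adjusted p = 0.103), ASO2 replicate 1 (0.0907) or ASO2 replicate 3 (0.133). The third (chr20:3820100-3820959), which lies within 1 kb of an end of AP5S1, had 26.3, 27.2 and 27.9 CPM in NCA, 26.4, 28.4 and 23.2 under ASO2 and 36.6, 35.8 and 37.9 under ASO10. ASO10 lay above both other groups, and the region was lower under ASO2 than under ASO10 (log2 fold change -0.50 ± 0.13, edgeR adjusted p = 0.00738). Against NCA the ASO10 difference was 0.44 ± 0.13 (edgeR adjusted p = 0.0608). The difference between the ASOs was not called without ASO2 replicate 3 (edgeR adjusted p = 0.0881) or ASO10 replicate 3 (0.0685).

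RSAD2 encodes viperin, a radical enzyme that blocks viral replication. The region at its start also covers the annotated start of CMPK2, a gene of the wider pathway list below. In that region (chr2:6865116-6866578) NCA had 17.9, 20.4 and 13.4 CPM, ASO2 14.5, 16.7 and 10.9 and ASO10 16.7, 16.2 and 12.5, which overlap. The next region, 1.92 kb away in CMPK2 (chr2:6863787-6864143), had 8.89, 8.83 and 8.28 CPM in NCA, 3.37, 4.94 and 5.78 under ASO2 and 8.68, 5.23 and 7.16 under ASO10. It was lower in every ASO2 library than in NCA and was called (log2 fold change -0.86 ± 0.24, edgeR adjusted p = 0.0128), but not without NCA replicate 1 (edgeR adjusted p = 0.0534) or ASO2 replicate 1 (0.150). With a window of 2 kb around the gene ends it is the 1 gene-end region called under ASO2. Beyond the other end, at 29.1 kb inside RNF144A (chr2:6926967-6927683), NCA had 16.4, 15.1 and 15.7 CPM, ASO2 13.3, 11.9 and 10.6 and ASO10 8.91, 8.08 and 9.77. The 3 groups did not overlap at all. The fall was called under ASO10 (-0.82 ± 0.18, edgeR adjusted p = 0.00333) and for both ASOs (-0.61 ± 0.15, edgeR adjusted p = 0.00555), but not under ASO2 alone (-0.41 ± 0.18, edgeR adjusted p = 0.191). Leaving out ASO10 replicate 2 ended the ASO10 call (edgeR adjusted p = 0.0532), and leaving out NCA replicate 1 ended that for both ASOs (0.0603).

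The 2 regions that were higher lay near the edge of the window. The one 46.7 kb from IRF9 (chr14:24113787-24115428), at ends of DCAF11 and NRL, had 68.8, 59.9 and 69.2 CPM in NCA, 69.9, 77.7 and 69.0 under ASO2 and 84.4, 86.6 and 90.2 under ASO10. ASO10 stood above both other groups (log2 fold change 0.40 ± 0.11 against NCA, edgeR adjusted p = 0.0231). The one 48.7 kb from ISG20 (chr15:88586145-88587760) had 46.5, 37.4 and 40.7 CPM in NCA, 46.6, 54.2 and 52.8 under ASO2 and 61.5, 52.0 and 53.5 under ASO10. Every ASO library was above every NCA library, and the rise was called under ASO10 (0.42 ± 0.12, edgeR adjusted p = 0.0328) and for both ASOs (0.36 ± 0.10, edgeR adjusted p = 0.0191). With loess offsets, which remove each library's trend with abundance, both ASO10 values shrank and were not called (0.23, adjusted p = 0.265 near IRF9 and 0.27, adjusted p = 0.234 near ISG20). Both ASO10 calls were also lost without any 1 of the 6 NCA and ASO10 libraries (edgeR adjusted p from 0.0595 to 0.234 near IRF9 and from 0.0513 to 0.354 near ISG20), and the ISG20 call without a filter (0.0532) and without ASO2 replicate 1 (0.0512). The call for both ASOs was lost without NCA replicate 2 (0.243), NCA replicate 3 (0.121) or ASO10 replicate 1 (0.0992).

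**Figure D4:**
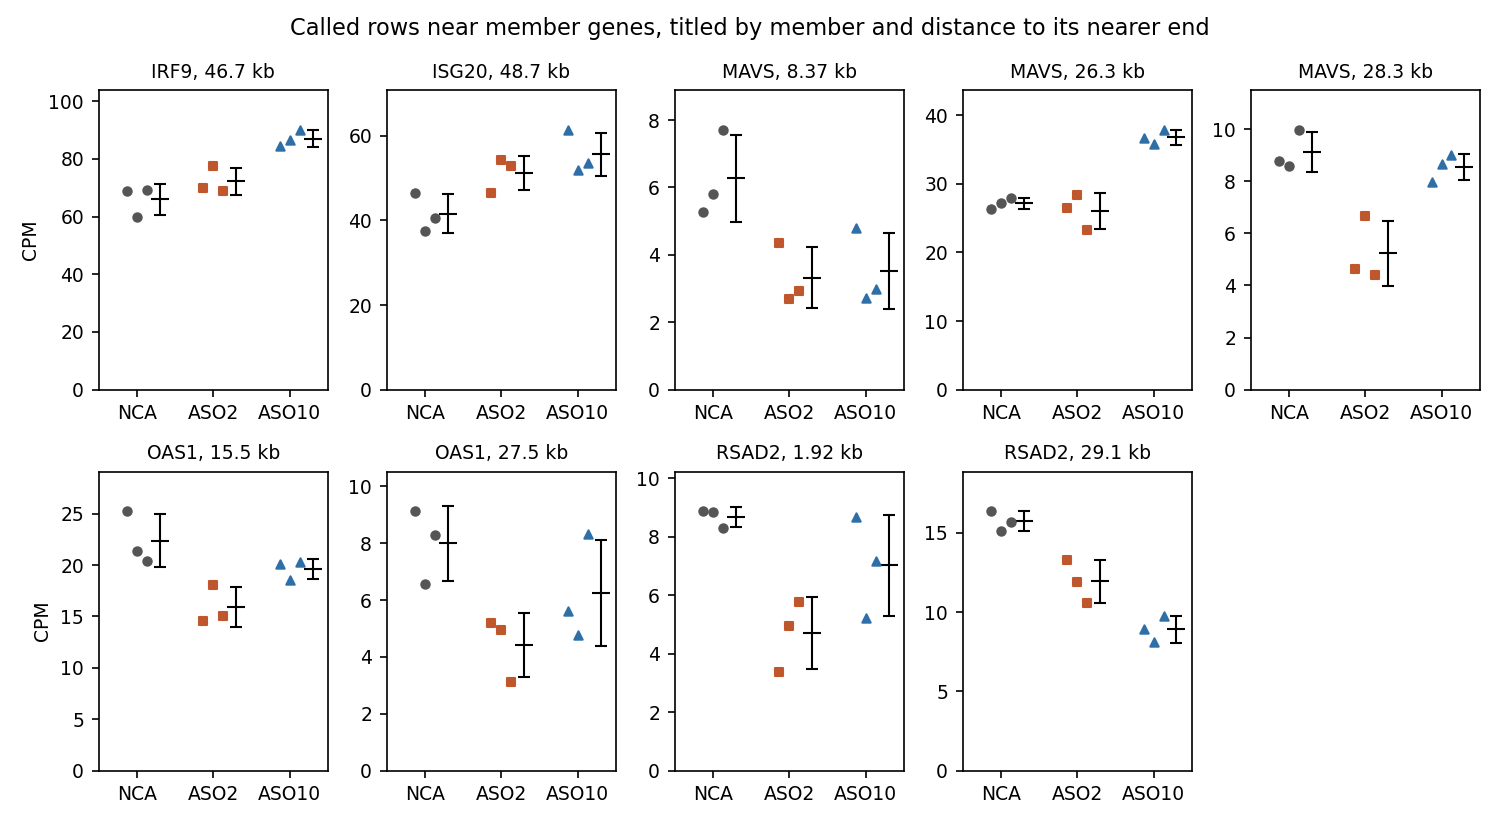
CPM in every library (symbols) with mean and SD (bars, n = 3) for the 9 called further regions, each titled by its member gene and the distance in kb to the nearer gene end. The ASO2 squares lie below the NCA circles near OAS1 and RSAD2 and inside MAVS, and the ASO10 triangles lie above them near IRF9 and ISG20 and in the MAVS region at 26.3 kb.

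Of the members without a gene-end region, IFI27, an interferon-induced mitochondrial protein, had regions inside the gene. One of them was chosen for mention after its values were seen (chr14:94113600-94113934). It had 4.51, 3.53 and 5.56 CPM in NCA, 4.35, 2.90 and 4.04 under ASO2 and 2.58, 1.14 and 2.08 under ASO10. All ASO10 libraries lay below all others. The difference was not called (log2 fold change -1.23 ± 0.38, edgeR adjusted p = 0.0740), and with at least 10 counts in every library it was (-1.26, edgeR adjusted p = 0.0317). The regions near IFI44 and IFI44L, which lie side by side, had at most 4.80 CPM in any group mean, and XAF1 had a single region within 50 kb, too low to test.

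A wider list of 71 genes of the pathway was read beside the members. It was drawn up with earlier results of these data known. Gene-end regions were found for 54 of them, and 61 of 63 regions could be tested. Under ASO2, 2 were called and both were higher, where 0.569% of all gene-end regions were. Under ASO10, 0 were called, where 2.14% of all gene-end regions were. For both ASOs 1 was higher, where 0.961% were, and between the ASOs 1 was lower under ASO2, where 2.94% were. None of the 9 regions of receptors and their kinases, the 17 of sensing adaptors and kinases or the 9 of IRF and NF-kB factors was called.

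The called pathway genes include a pair of guanylate-binding proteins, interferon-induced GTPases that attack intracellular pathogens. At an end of GBP2 (chr1:89125765-89126540) NCA had 3.99, 5.04 and 4.43 CPM, ASO2 8.70, 10.6 and 9.63 and ASO10 4.81, 8.31 and 6.12. ASO2 lay above both other groups, and the rise was called under ASO2 (log2 fold change 1.11 ± 0.24, edgeR adjusted p = 0.00041), also in each alternative fit, and for both ASOs (0.81 ± 0.22, edgeR adjusted p = 0.0149). The call for both ASOs was lost with limma-voom (adjusted p = 0.0911) and without NCA replicate 1 (0.129), NCA replicate 3 (0.0748) or ASO10 replicate 2 (0.0928). The stop of GBP3 (chr1:89006916-89007279) had 1.03, 1.51 and 1.48 CPM in NCA, 3.51, 4.29 and 4.13 under ASO2 and 1.41, 1.02 and 2.21 under ASO10. ASO2 was again the highest group (1.56 ± 0.47, edgeR adjusted p = 0.0205). That call was lost with limma-voom (adjusted p = 0.0553) and without any 1 NCA library or ASO2 replicate 2 or 3 (edgeR adjusted p from 0.0513 to 0.113). GBP1 had no gene-end region.

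B2M, the light chain of class I antigen-presenting molecules, differed between the oligonucleotides. The region at its start (chr15:44711110-44712948), within 1 kb of an end of PATL2, had 35.7, 31.4 and 26.6 CPM in NCA, 30.5, 33.7 and 27.3 under ASO2 and 41.6, 39.7 and 39.2 under ASO10. ASO10 lay above both other groups, with a log2 fold change of -0.40 ± 0.13 for ASO2 against ASO10 (edgeR adjusted p = 0.0448) and 0.37 ± 0.13 for ASO10 against NCA (edgeR adjusted p = 0.143). The call between the ASOs was lost with DESeq2 (adjusted p = 0.0503), with no filter (0.0752), with loess offsets (-0.27, adjusted p = 0.194) and without NCA replicate 1 or 3, ASO2 replicate 1 or 3, or any 1 ASO10 library (from 0.0581 to 0.241).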

How the data were processed

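Counts of ATAC-seq signal in 148797 regions, shared by all 9 libraries, were deposited by the authors as whole numbers without normalization. The submitters' processing notes list hg38, FastQC, Bowtie2 2.2.6, SAMtools, MACS2 2.1.2 and DESeq2 1.42.0. Filters, any Tn5 shift and whether reads, pairs or cut sites were counted are not given in the sources used here, nor whether region starts count from 0 or 1. The labels name RNA as the molecule, while their protocol describes genomic DNA. Regions passing filterByExpr (119417) were scaled by TMM and fitted with edgeR 4.0.16 (R 4.3.3; robust quasi-likelihood, all 9 libraries, 1 term per group). Intervals are the estimate ± the 95% t quantile times its SE. CPM uses TMM-scaled totals, and SD is over 3 libraries. The fit was tested on simulated data. Alternatives were DESeq2 1.42.0, limma-voom (limma 3.58.1), a replicate block, loess offsets (span 0.3), RLE and total-count scaling, leaving out each library, other windows, fits of the compared groups alone, and filters of none or of 10 counts per library. Gene starts only was added after seeing the data. No pair of libraries within a group was a copy (chi-square per degree of freedom 2.74 to 3.42), and pairs across groups were not checked in this way. Gene ends and promoters are RefSeq GRCh38.p14.

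Members and lists were chosen with earlier results of these data known. Values per library are given for every called member region, the 2 gene-end regions with the smallest p in each contrast, the 3 highest and 3 lowest, the strongest region of IFNB1, RIGI, IFIH1 and ISG15, and called pathway genes. The RSAD2 start was added, as were the regions named as chosen after their values were seen. Figures used Python 3.11.15, pandas 2.3.3 and matplotlib 3.10.9.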

Additional observations from a re-analysis of the deposited data

Results flagged for a closer look

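The region 26.3 kb from the MAVS start (chr20:3820100-3820959, at an end of AP5S1) differed between the oligonucleotides directed against the same RNA, which is why it is listed here. The log2 fold change for ASO2 against ASO10 was -0.50 ± 0.13 (SE), with an edgeR adjusted p of 0.00738, and every ASO10 library (35.8 to 37.9 CPM) lay above every ASO2 library (23.2 to 28.4 CPM). No gene-end region of a member differed between the oligonucleotides in this way.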

How the results depend on the processing

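Over 65 results and 1126 alternatives, 922 changed neither direction nor call and moved little, 107 moved further, 76 lost a call, 6 gained one and 15 turned sign; the cause was not tested. For gene-end regions, the count called stayed at 0 in all 4 contrasts except under ASO2 with a 2 kb window (1) and, with single libraries left out, 0 to 1 under ASO2 and between the ASOs. Their median log2 fold change under ASO2 was -0.080 with limma-voom, -0.040 with at least 10 counts in every library, -0.081 with only the groups compared, -0.084 with a 2 kb window and -0.023 for gene starts only. For both ASOs it was 0.031 with limma-voom and 0.029 for gene starts only, and between the ASOs -0.088 with a 2 kb window. Leaving out single libraries, the medians ran from -0.137 to -0.029 under ASO2, from -0.027 to 0.093 under ASO10, from -0.066 to 0.038 for both and from -0.141 to -0.015 between the ASOs.

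For further regions, the count under ASO2 was 3 with DESeq2, 3 with limma-voom, 9 with loess offsets, 8 with at least 10 counts in every library, 3 within 20 kb and 9 within 100 kb. Under ASO10 it was 5 with DESeq2, 1 with loess offsets, 6 with at least 10 counts, 5 with only the groups compared, 0 within 20 kb and 6 within 100 kb. For both ASOs it was 5 with at least 10 counts, 1 within 20 kb and 9 within 100 kb. Between the ASOs it was 3 with DESeq2, 3 with limma-voom, 2 with total counts, 4 with loess offsets, 6 with at least 10 counts, 4 with only the groups compared, 0 within 20 kb and 3 within 100 kb. Leaving out single libraries gave 2 to 5, 0 to 5, 1 to 3 and 0 to 3 calls. Their median under ASO2 was -0.070 with total counts, -0.045 with no filter, -0.069 with at least 10 counts, -0.071 with only the groups compared, -0.035 within 20 kb and -0.062 within 100 kb. Under ASO10 it was 0.027 with limma-voom, -0.011 with total counts, 0.003 with loess offsets, 0.029 with no filter, 0.001 with at least 10 counts and -0.009 within 20 kb. For both ASOs it was -0.033 with loess offsets. Between the ASOs it was -0.014 with total counts, -0.044 with loess offsets, -0.062 with at least 10 counts, -0.074 with only the groups compared, 0.008 within 20 kb and -0.074 within 100 kb. Leaving out single libraries, these medians ran from -0.062 to -0.019, from -0.036 to 0.038, from -0.057 to 0.008 and from -0.078 to -0.024.

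Equal replicate numbers did not pair libraries (correlations of deviations from -0.036 to 0.0126). With the replicate block, further regions called under ASO10 fell to 1 with a median of 0.003, where the IRF9 and ISG20 regions had edgeR adjusted p of 0.0586 and 0.0683, and B2M between the ASOs had 0.073. Values near 0 that turned sign were TRIM25 under ASO10 (-0.052 with loess offsets, -0.057 without NCA replicate 2), ISG15 under ASO2 (-0.033 without ASO2 replicate 1, range to 0.396), MAVS under ASO2 (0.014 without NCA replicate 1, 0.042 without ASO2 replicate 3, range from -0.065) and the stop of EIF2AK2 under ASO10 (-0.032 without NCA replicate 2, range to 0.525). The IFIH1 region turned under ASO2 (-0.014 without NCA replicate 2, -0.070 without ASO2 replicate 2, range to 0.244) and under ASO10 (0.046 without NCA replicate 3, range from -0.210). The IFNB1 region under ASO2 turned with total counts (-0.006), loess offsets (-0.051), at least 10 counts (-0.005), only the groups compared (-0.007) and without NCA replicate 2 (-0.072) or ASO2 replicate 2 (-0.110), with a range up to 0.102. Over all tested regions, loess offsets changed the calls under ASO10 from 1046 higher and 251 lower to 682 and 468, and for both ASOs from 2866 and 709 to 2620 and 1124. The fit with only the groups compared gives no value for both ASOs. Depth limits the weakest gene-end regions most, and 2 of the 29 (one of USP18 and the stop of RSAD2) were too low to test.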
